A study of Mus musculus with 10 samples.

Results

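The 6 wild-type (WT) libraries of the frontonasal prominence (FNP) were described on their own, out of 10 libraries in the series, and were chosen as those whose columns carry the WT label in both deposited tables. FNP tissue had been dissected at E10.5 from FVB/NJ mouse embryos of the genotype Smchd1 WT/WT and its RNA sequenced, in 3 male libraries (replicates 1 to 3) and 3 female libraries (replicates 4 to 6). The other 4 libraries, labelled MD1 for a mutant allele of Smchd1, entered no value given here. No treatment, transgene or Cre was named for the WT embryos. Whether a library is 1 embryo or a pool is not in the labels, so the spread between libraries may hold technical as well as biological variation, and p-values measure only that spread. FNP tissue holds several cell types, and in such bulk tissue fewer cells of a type and less RNA per cell cannot be told apart.

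The FNP is the facial swelling that overlies the forebrain and gives rise to the forehead and the bridge and sides of the nose. Its core is mesenchyme from the cranial neural crest, which is covered by surface ectoderm, carries the nasal placodes that form the olfactory epithelium, and lies against the neuroepithelium of the forebrain and optic vesicles. Its growth is known to depend on sonic hedgehog and FGF8 from the ectoderm and forebrain, on BMP, Wnt and retinoic acid signals, and on homeobox factors of the Alx family.

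The libraries held 9225452 to 24125084 counts, and 18041 to 19852 autosomal genes had at least 1 count in a library. Xist was at 129 to 135 RPKM (reads per kilobase of transcript, scaled to 1000000 reads) in the 3 female libraries and at most 0.106 RPKM in the males, whereas the Y-linked gene Ddx3y had 0 counts in every female library, so all 6 libraries matched their labelled sex. Smchd1 itself lay between 10.47 and 11.8 RPKM. Each pair of libraries differed by 6.64 to 20.01 times the variance of counting error (chi-square per degree of freedom over genes), so none was a second deposit of another.

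All 5 genes that mark the tissue label were expressed in all 6 libraries. Twist1, a basic helix-loop-helix factor of cranial mesenchyme, was the highest, at 79.0 RPKM in the lowest library, 82.4 at the median and 120 in the highest. Alx1, a homeobox factor needed for the midface, ran from 19.1 through a median of 22.4 to 39.3 RPKM. Prrx1, a mesenchymal homeobox factor, ran from 17.3 through 20.6 to 30.3 RPKM. Pax7, a paired-box factor of the neural crest, ran from 7.12 through 9.19 to 14.2 RPKM, and Tfap2a, an AP-2 factor of ectoderm and crest, ran from 5.06 through 5.396 to 8.10 RPKM. WT female replicate 4 was the highest library for Twist1, Alx1 and Pax7, whereas Prrx1 was highest in WT male replicate 3 and Tfap2a in WT male replicate 1. The order of levels between Alx1 and Prrx1 was not beyond their spread, since their mean log2 RPKM were 4.62 ± 0.39 and 4.41 ± 0.28 (SD, n = 6 libraries).

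Over all 33659 autosomal genes, 12552 (37.3%) had a mean log2 RPKM at or above that of 1 RPKM, which is the threshold used here for an expressed gene. At 10 RPKM or more there were 5172 genes and at 100 RPKM or more 214, while 11716 genes had 0 counts in all 6 libraries. Of protein-coding genes, 53.7% of 20743 reached 1 RPKM, against 5.05% of 5188 lincRNA genes. The facial mesenchyme and neural crest list had 31 of 34 members at 1 RPKM or more, with a median level of 10.47 RPKM. Behind Twist1 came the homeobox factors Six2 at 56.0 RPKM and Msx1 at 54.8 RPKM. The 3 members under 1 RPKM were Osr1 at 0.613 RPKM, Runx2, the master factor of bone, at 0.339 RPKM, and Osr2 at 0.152 RPKM.

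Genes of the neighbouring cell types were also expressed. The nasal placode and olfactory neurogenesis list had 24 of 25 members at 1 RPKM or more, led by the neuronal tubulin Tubb3 at 53.4 RPKM and the progenitor factor Sox2 at 45.5 RPKM, while Gnrh1, the hormone of neurons that later leave the olfactory placode, stood at 0.362 RPKM. The forebrain and eye neuroepithelium list had 15 of 19, with Nes, an intermediate filament of neural progenitors that other cells use as well, at 78.2 RPKM. The retinal factor Rax differed widely between libraries, from 0.00756 RPKM (0 reads, WT female replicate 4) through a median of 0.719 to 1.10 RPKM (154 reads, WT male replicate 2). The arch identity list had 15 of 20, with Pou3f3 at 18.8 RPKM and the endothelin receptor Ednra at 13.5 RPKM, and the 5 under 1 RPKM were Edn1, Dlx4, Nkx3-2, Hand1 and Hand2, which is known from the lower jaw and was at 0.0225 RPKM. Of the surface ectoderm list 21 of 24 members passed, with the tight-junction gene Cldn6 at 33.4 RPKM and the adhesion gene Epcam at 25.7 RPKM. Of the endothelial list 19 of 20 passed, led by the vascular cadherin Cdh5 at 20.5 RPKM. The globins of primitive red cells were among the most abundant transcripts, with Hbb-y at 2284 RPKM, Hbb-bh1 at 1495 RPKM and Hba-x at 806 RPKM, and 15 of 16 erythroid genes passed. Counts of near-identical globin genes such as Hba-a1 and Hba-a2 can be split by the counting and are uncertain.

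Other embryonic tissues were near the floor. None of the 39 Hox genes, which pattern the trunk and hindbrain, reached 1 RPKM, 33 of them had 0 counts in all 6 libraries, and all 39 together gathered 21 counts over the 6 libraries. In the deposited log2 values a count of 0 is written as 0.9 of a read, so levels in this range are floors set by depth. The trophoblast and decidua list had 0 of 14 members at 1 RPKM or more, the heart, limb and muscle list 1 of 14 (Lmx1b, at 1.51 RPKM), and the yolk sac endoderm and liver list 1 of 12 (Trf, the iron carrier transferrin, at 1.61 RPKM). Of the macrophage list 6 of 15 passed, with Cd68 the highest at 3.23 RPKM and Ptprc at 0.063 RPKM. Of the peripheral glia and migrating crest list 4 of 10 passed, and Sox10, the factor of migrating crest and glia, was at 0.451 RPKM.

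**Figure D1:**
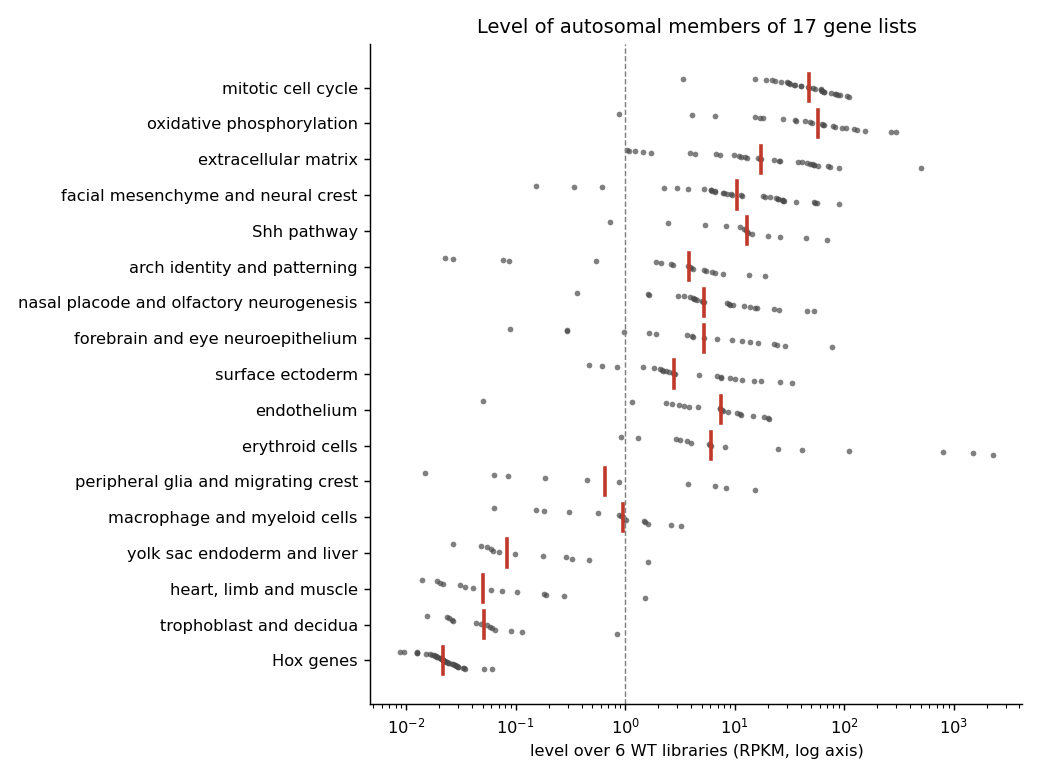
Each point is an autosomal member of a gene list at its level over the 6 WT libraries (x axis, RPKM on a log axis, from the mean log2 RPKM), each row is a list, red bars are list medians and the dashed line is 1 RPKM. The medians of facial mesenchyme (10.47 RPKM) and cell-cycle genes (47.5 RPKM) lie to the right of the line, and all Hox genes (median 0.0217 RPKM) lie to its left.

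Genes of the signalling pathways of the midface were expressed, and in the Shh, FGF, BMP and Wnt lists these included ligands, receptors and targets. In the Shh pathway 13 of 14 members reached 1 RPKM. The ligand Shh was at 12.7 RPKM, its receptor Ptch1, which is also a target gene, at 14.4 RPKM, the co-receptors Gas1, Cdon and Boc at 69.2, 26.1 and 13.3 RPKM, the signal transducer Smo at 45.3 RPKM, and the transcription factors Gli3, Gli2 and Gli1 at 20.2, 13.1 and 12.2 RPKM. The decoy receptor Hhip alone of the list was under the threshold, at 0.721 RPKM. In the FGF pathway 16 of 18 members passed: the ligands Fgf17, Fgf8 and Fgf15 were at 12.1, 11.6 and 11.4 RPKM, the receptor Fgfr1 at 24.96 RPKM, and the feedback phosphatase Dusp6, an FGF target, at 66.1 RPKM. The levels of these 3 ligands did not differ beyond their spread, with Fgf8 alone ranging from 9.14 to 17.5 RPKM over the libraries.

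In the BMP pathway 18 of 20 members passed, with the ligands Bmp7 at 15.5 RPKM and Bmp4 at 12.7 RPKM, the receptor Bmpr1a at 41.0 RPKM, the antagonist Nog at 5.16 RPKM and the target Id3 at 70.2 RPKM. In the Wnt pathway 22 of 25 passed, with the transducer Ctnnb1 at 320 RPKM, the receptor Fzd2 at 57.1 RPKM, the secreted inhibitors Sfrp1 and Sfrp2 at 56.2 and 44.3 RPKM, the ligand Wnt5a at 16.1 RPKM and the feedback target Axin2 at 11.02 RPKM. Notch had 16 of 17 members at 1 RPKM or more and the PDGF and ephrin list 15 of 16, in which the mesenchymal receptor Pdgfra stood at 23.9 RPKM beside its ligands Pdgfc at 13.4 and Pdgfa at 10.8 RPKM.

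In the retinoic acid list Crabp1, an intracellular carrier of retinoic acid, had the highest level. It was at 614 RPKM in the lowest library, 750 at the median and 838 in the highest, and its relative Crabp2 was at 198 RPKM. Aldh1a3, a retinaldehyde dehydrogenase that makes retinoic acid, was at 16.3 RPKM, whereas Aldh1a2, the enzyme of the trunk mesoderm, was at 0.236 RPKM. The degrading enzymes Cyp26b1 and Cyp26a1 were at 3.35 and 3.30 RPKM. In all 14 of 17 members passed.

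Of the 20 genes of the highest level 10 were of general functions: the chaperone Hsp90ab1 (1196 RPKM), the elongation factors Eef1a1 (1122 RPKM) and Eef2 (626 RPKM), the tubulin Tubb5 (810 RPKM), Actb (580 RPKM), Ywhae, and the ribosomal protein genes Rpl8, Rplp1, Rpl4 and Rps15. Beside these stood the 3 primitive globins, Crabp1, the imprinted genes Mest (650 RPKM) and H19 (481 RPKM), the heparin-binding growth factor Mdk (499 RPKM), and the non-coding models AY036118 (3284 RPKM), Gm42418 (1855 RPKM) and Gm20721. AY036118 and Gm42418 lie on opposite strands of the same part of chromosome 17 (GRCm38 chr17:39847113-39848035 and chr17:39846958-39848788), and 100% and 99.5% of their exon bases are shared with another gene, so their reads cannot be told apart without strand. The 100 highest genes together took between 12.1% and 13.0% of autosomal counts in each library, with 95% Wilson intervals at most 0.0432 percentage points wide, which cover counting error only. All 31 cell-cycle genes and all 32 extracellular matrix genes were at 1 RPKM or more, among the latter the basement membrane collagen Col4a1 at 89.2 RPKM and the cartilage collagen Col2a1 at 73.9 RPKM. All 75 autosomal ribosomal protein genes passed, with a median of 23.5 RPKM, though reads shared with processed copies make those values uncertain. Of 30 imprinted genes 28 passed, and all 34 orthologues of human facial syndrome genes passed.

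The spread between libraries was small for most genes. It was measured as the SD of log2 CPM (counts per 1000000, after TMM scaling between libraries) over the 6 libraries, for the 10322 autosomal genes with a mean of 10 CPM or more. The median SD was 0.118, a factor of 1.08, and from the 10th to the 90th percentile it ran from 0.0646 to 0.228. Counting error alone gave a median SD of 0.0540. A low spread, here an SD under 0.1, was found for 3705 genes (35.9%), and a high spread, an SD over 0.5, for 95 genes (0.92%), of which 77 were protein-coding. All 95 had an SD over 2 times that of counting error, which the thresholds of 10 CPM and 0.5 nearly ensure.

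**Figure D2:**
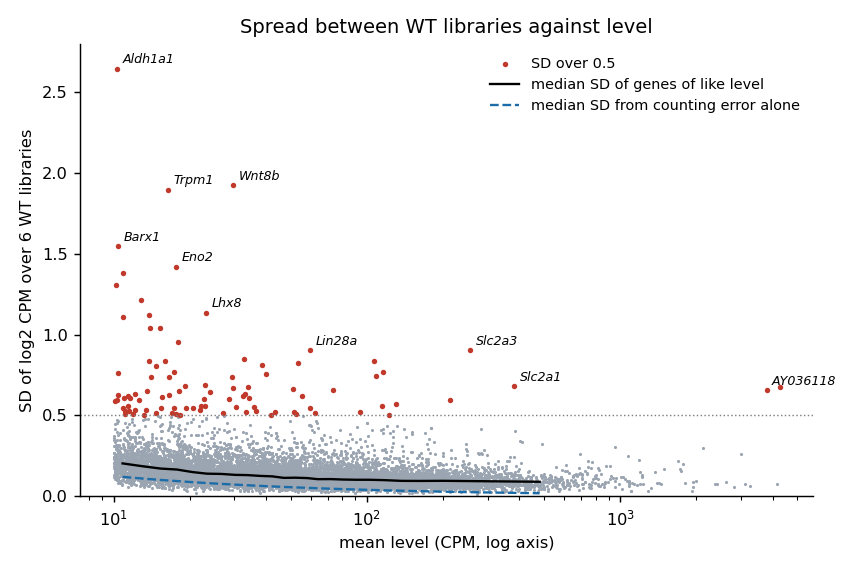
Each point is an autosomal gene with its mean level (x axis, CPM, log axis) and the SD of its log2 CPM over the 6 WT libraries (y axis). Red points are the 95 genes over 0.5 (dotted line), the black line is the median SD of genes of like level and the blue dashed line the median SD that counting error gives, and over all genes plotted the median SD was 0.118 against 0.0540 from counting error.

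The lists of cell division and oxidative phosphorylation had the smallest median SDs of the lists. In the mitotic cell cycle list 23 of 31 members had a low spread, against 35.9% of all genes measured, with a median SD of 0.0756 beside 0.118 overall. The proliferation antigen Mki67 ran from 934 through 983 to 1052 CPM, and Rrm1, a subunit of the enzyme that makes deoxynucleotides, from 502 through 524 to 531 CPM. The cell-cycle inhibitor Cdkn1a had the largest SD in the list, 0.47, from 10.9 CPM to 26.3 CPM, and its highest value was in WT male replicate 1. In oxidative phosphorylation 15 of 23 members had a low spread (median SD 0.0789), and in the cytoskeleton list 11 of 20 (0.0957). The 4 Shh pathway members of low spread were Cdon, Boc, Gli2 and Kif7, each with an SD of 0.06 or 0.07, and the pathway's median SD was 0.110. Of the Wnt genes the evenest was Ctnnb1, at 1861, 1924 and 2000 CPM in the lowest, median and highest reading. Among the syndrome genes the evenest was Ezh2, a histone methyltransferase of Polycomb (SD 0.04). The smallest SDs of all were those of Ppp6r3 (0.015), Rab11fip2 (0.017) and Gak (0.019), which lay below what counting error alone gives for these genes (0.024, 0.063 and 0.041), so their order carries no information. In all 527 genes had an SD at or under their counting error.

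The 95 high-spread genes were unevenly shared between libraries. The library farthest from the mean of the 6 was WT female replicate 4 for 39 of them and WT male replicate 1 for 31, and it was WT female replicate 5 for 11, WT male replicate 3 for 9, WT female replicate 6 for 3 and WT male replicate 2 for 2. Without WT male replicate 1 the number of high-spread genes was 77, of which 63 were among the 95, and without WT female replicate 4 it was also 77, of which 69 were. Without both it was 43, of which 34 were among the 95. The first principal component of log2 CPM carried 36.6% of the variance. WT female replicate 4 (14.5) and WT male replicate 1 (9.89) were highest on it, WT male replicate 3 (1.38) came next, and the others ran from -10.2 to -6.14. The second carried 28.1% and had WT male replicate 1 at 15.4 against at most 3.59 elsewhere.

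These libraries also differed in other markers. Afp, a defining gene of yolk sac endoderm and fetal liver, was at 14.2 CPM in WT male replicate 1 and 21.9 CPM in WT female replicate 4, and at no more than 0.897 CPM in the other 4. The summed level of the 12 yolk sac and liver genes was 6.83 and 11.3 RPKM in these libraries and 2.73 to 3.59 RPKM elsewhere, with Alb at 0.0485 RPKM over the 6 libraries. WT male replicate 1 was also the shallowest library, and its erythroid genes had the lowest score (-0.39). The part of these differences in the spread was not tested.

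The genes of largest spread are described by the library in which they stood out, so the order of the libraries within each group follows from that choice. Of the 95 genes 42 were lowest in WT female replicate 4, and these included genes of forebrain and eye, beside others such as Eno2, Slc2a1 and Slc2a3, which stood farthest from the mean in WT male replicate 1. Wnt8b, a Wnt ligand of the dorsal and medial forebrain, was at 11.99, 43.3 and 21.5 CPM in WT male replicates 1 to 3 and at 1.47, 50.3 and 49.4 CPM in WT female replicates 4 to 6, so the highest library was 34.2 times the lowest. Trpm1, a channel of pigment and retinal cells, was at 2.02, 27.7, 17.2, 1.53, 17.3 and 32.3 CPM in the same order, and Pmel, a pigment-granule protein that marks early retinal pigment epithelium, at 4.26, 13.8, 14.4, 3.00, 10.6 and 30.8 CPM. Both were low in WT male replicate 1 as well as in WT female replicate 4. Aldh1a1, the retinaldehyde dehydrogenase of the dorsal retina, had the largest SD of all (2.65), with 5 counts in WT male replicate 1, 3 counts in WT female replicate 4 and 100 to 348 counts in the others.

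Further genes that were low there kept more expression in WT female replicate 4. Fezf2, a forebrain factor, was there at 4.64 CPM and at 12.1 to 23.0 CPM elsewhere. Lhx2, which is needed for eye and telencephalon, was at 70.0 CPM against 84.3 to 157 CPM, and Pax6, the eye and forebrain paired-box factor, at 30.8 CPM against 45.2 to 81.1 CPM. The Wnt ligand Wnt7b was at 20.4 CPM against 29.2 to 85.2 CPM and the RNA-binding protein Lin28a, a pluripotency and growth factor that blocks let-7 maturation, at 17.6 CPM against 40.2 to 100 CPM. Of 12 measured genes on the forebrain and eye list 4 had a high spread (Pmel, Fezf2, Pax6 and Lhx2), beside 0.92% of all genes, and 1 did without WT female replicate 4, with the same genes measured. A gene can reach a mean of 10 CPM through the libraries in which it is high, and such a gene has to vary, so these counts are descriptions. With a median of at least 10 CPM in place of the mean, an alternative chosen after seeing the data, the list had 5 of 13 (Six6 in addition), beside 0.806% of all genes. The score of the list, the mean of its members' log2 CPM less the mean of the 6 libraries, was -0.89 in WT female replicate 4, -0.17 in WT male replicate 1 and 0.06 to 0.48 in the others. Its evenest member was Nes, at 557 to 614 CPM. In the same library the facial mesenchyme list had its highest score (0.29), with Pax9 at 43.7 CPM against 12.8 to 30.6 CPM elsewhere.

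A second group was highest in WT male replicate 3 and WT female replicate 6, and it held genes known from the maxillary region and its boundary. Barx1, a homeobox factor of the maxillary and mandibular mesenchyme, was at 26.8 and 21.1 CPM in these libraries and at 1.97 to 6.56 CPM in the other 4. Lhx6 was at 32.1 and 22.8 CPM against 4.26 to 9.95 CPM, and Lhx8 at 46.3 and 37.1 CPM against 7.04 to 24.9 CPM. Both are LIM-homeobox factors of the oral side of the arch. Mab21l1 was at 32.5 and 25.8 CPM against 4.71 to 10.7 CPM and its relative Mab21l2 at 76.4 and 56.4 CPM against 18.3 to 31.1 CPM. Dlx2 and Dlx1, homeobox factors of the arches and ventral forebrain, followed with SDs of 0.52 and 0.55. Of 11 measured arch identity genes 5 had a high spread (Barx1, Lhx8, Lhx6, Dlx1 and Dlx2), beside 0.92% of all genes. However, Barx1 and Lhx6 reached the mean of 10 CPM only through these libraries. At a median of at least 10 CPM the count was 3 of 9 (Lhx8, Dlx1 and Dlx2), beside 0.806% of all genes. With the same 11 genes measured, the count was 5 or 6 without either of WT male replicate 1 and WT female replicate 4 or without both. It was 3 without WT male replicate 3 or without WT female replicate 5, and 6 without WT female replicate 6. Their counterparts Ednra, the endothelin receptor of crest cells, and Pou3f3, a POU factor of the maxillary and frontonasal mesenchyme, had SDs of 0.18 and 0.15. The tissue had been cut from the embryo along the boundary with the maxillary prominence, and the part of the cut in these values was not tested.

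**Figure D3:**
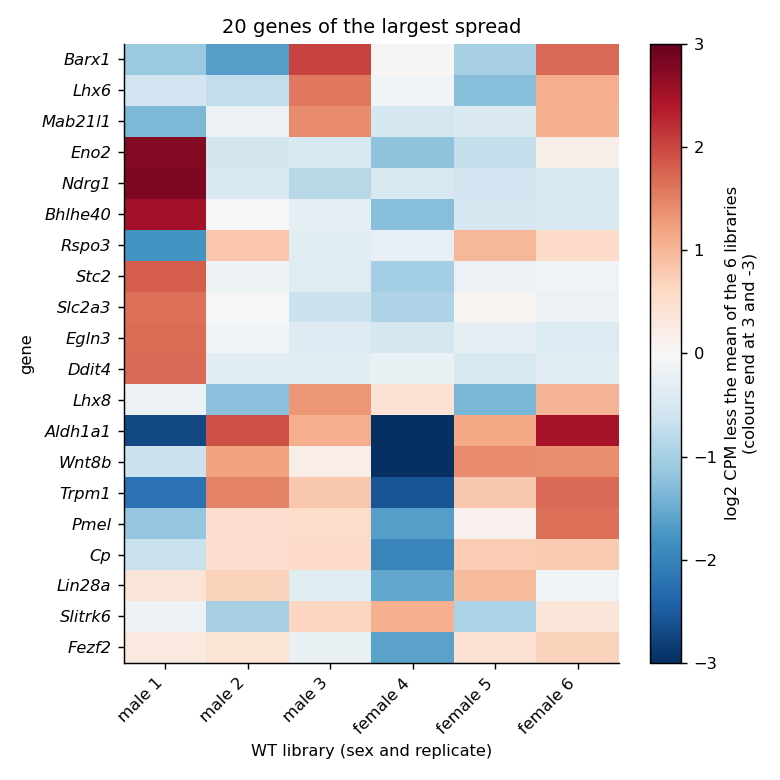
Rows are the 20 genes of the largest SD and columns the 6 WT libraries, with colour for log2 CPM less the mean of the 6 (red above, blue below, ending at 3 and -3). Barx1 and Lhx6 are red in male 3 and female 6, Ndrg1 and Eno2 in male 1, and Wnt8b and Trpm1 are blue in female 4.

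Another group, of 21 genes, had its farthest value in WT male replicate 1, above the others. It included 13 genes of the glycolysis and hypoxia list or the integrated stress response list, which low oxygen or nutrient stress is known to raise, and also Pkp2, a desmosome gene, and the models Gm12868, Gm45507 and AC160336.1, which were named after their values were seen. Ndrg1, a classic hypoxia-induced gene, was at 44.3 CPM there and at 3.42 to 4.52 CPM in the other 5 libraries. Eno2, an enolase, was at 69.5 CPM against 4.35 to 11.5 CPM, and Bhlhe40, a transcriptional repressor, at 37.9 CPM against 2.60 to 6.44 CPM. Both are on neither list. The glucose transporters Slc2a3 and Slc2a1 were at 666 CPM against 110 to 223 CPM and at 767 CPM against 186 to 381 CPM. Ddit4, an inhibitor of mTORC1, was at 289 CPM against 64.1 to 76.9 CPM, Egln3, an oxygen-sensing prolyl hydroxylase, at 37.1 CPM against 7.92 to 10.8 CPM, and Bnip3, a mitophagy receptor, at 74.6 CPM against 19.7 to 31.4 CPM.

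Of 32 measured genes on the glycolysis and hypoxia list 12 had a high spread, and at a median of at least 10 CPM 10 of 30 did, since Ndrg1 and Egln3 reached the mean of 10 CPM only through WT male replicate 1. Over all genes the shares by these 2 filters were 0.92% and 0.806%. With the same 32 genes measured, 0 did without WT male replicate 1, when the median SD of the list went from 0.317 to 0.192. Without that library 77 of all 10322 genes had a high spread. The list's score was 0.84 in WT male replicate 1 and between -0.45 and -0.02 in the other 5. The most abundant glycolytic genes moved less: the SDs were 0.17 for Pkm, 0.18 for Tpi1, 0.31 for Ldha and 0.32 for Aldoa. The integrated stress response list, of genes driven by ATF4, had a score of 0.77 in the same library and at most 0.00 elsewhere, with high spread in 2 of 14 members, Vldlr and Sesn2, and in 0 without WT male replicate 1. The sestrin Sesn2 was at 70.7 CPM against 20.6 to 30.8 CPM. Immediate early genes had a score of 0.41 and p53 targets of 0.15 there. Heat shock and metallothionein genes were at 0.14 there and at 0.13 in WT female replicate 5, values that differed by less than the SD of the score (0.12), and cell-cycle genes were at 0.02.

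**Figure D4:**
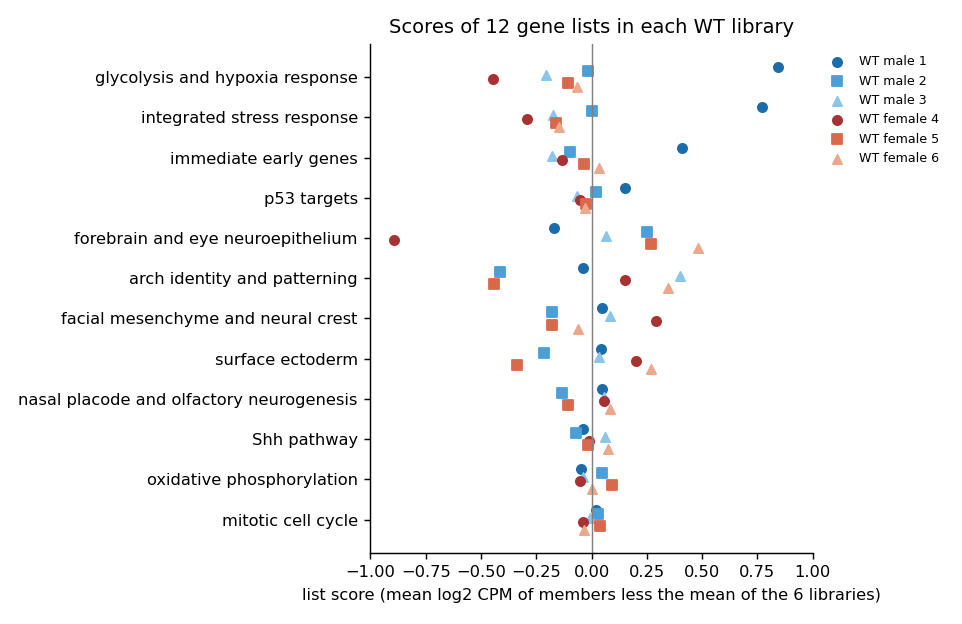
Each point is the score of a gene list in a WT library (x axis, mean log2 CPM of its members less the mean of the 6 libraries), with males in blue and females in red. WT male 1 stands at 0.84 for glycolysis and hypoxia and WT female 4 at -0.89 for forebrain and eye, while cell-cycle scores stay between -0.04 and 0.04.

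Promoter sequence was set beside spread and level. RefSeq promoters (GRCm38.p6, 250 bases before to 50 after the gene start) could be matched to 7251 of the 10322 genes and to 59 of the 95 high-spread genes. The ratio of observed to expected CpG had a median of 0.631 in high-spread promoters, 0.848 in low-spread promoters, 0.914 in those of the 100 highest genes and 0.815 in all. The letters TATAAA or TATATA, searched on both strands, were in 18.6% of the high-spread promoters, 6.43% of the low-spread promoters, 15 of the 60 matched among the 100 highest genes and 6.95% of all. These shares are descriptions, and a match is not a binding site. The letters ACGTG on either strand are the core that hypoxia-inducible factors are known to bind. They were in 13 of 28 promoters of the glycolysis and hypoxia list (46.4%). Their share was 23.7% in high-spread promoters, 28.9% in low-spread promoters and 27.6% in all 7251. The 4 promoters of that list with the largest spread and a match are printed to show where those letters stand, with capitals for ACGTG or its reverse complement CACGT, followed by that of the low-spread gene Gak (SD 0.019), which holds neither. They lie at chr12:54203825-54204124 (minus strand), chr10:59951721-59952020 (minus), chr4:119108495-119108794 (plus), chr7:138909457-138909756 (minus) and chr5:108629728-108630027 (minus).
Egln3: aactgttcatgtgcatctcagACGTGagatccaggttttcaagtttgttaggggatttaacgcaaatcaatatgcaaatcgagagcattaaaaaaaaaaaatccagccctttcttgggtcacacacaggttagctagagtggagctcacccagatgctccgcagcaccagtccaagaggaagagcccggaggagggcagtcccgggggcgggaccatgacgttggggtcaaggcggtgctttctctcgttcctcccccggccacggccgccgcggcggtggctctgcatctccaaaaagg
Ddit4: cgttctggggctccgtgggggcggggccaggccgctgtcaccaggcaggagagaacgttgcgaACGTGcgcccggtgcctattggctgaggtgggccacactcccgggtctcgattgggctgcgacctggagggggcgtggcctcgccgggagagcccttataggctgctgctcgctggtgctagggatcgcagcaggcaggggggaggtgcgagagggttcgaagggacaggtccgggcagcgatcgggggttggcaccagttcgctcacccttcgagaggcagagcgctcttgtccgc
Slc2a1: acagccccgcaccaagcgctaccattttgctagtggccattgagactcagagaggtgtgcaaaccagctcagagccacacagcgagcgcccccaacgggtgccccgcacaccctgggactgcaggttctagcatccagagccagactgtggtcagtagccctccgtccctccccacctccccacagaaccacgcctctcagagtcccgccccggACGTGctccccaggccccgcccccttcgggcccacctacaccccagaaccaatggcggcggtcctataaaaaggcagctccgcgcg
Bnip3: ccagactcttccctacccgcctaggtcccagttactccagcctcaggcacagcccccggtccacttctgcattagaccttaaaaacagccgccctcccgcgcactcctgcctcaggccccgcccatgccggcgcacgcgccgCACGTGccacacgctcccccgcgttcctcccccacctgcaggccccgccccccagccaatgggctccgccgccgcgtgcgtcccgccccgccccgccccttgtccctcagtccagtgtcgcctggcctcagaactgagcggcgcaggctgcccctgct
Gak: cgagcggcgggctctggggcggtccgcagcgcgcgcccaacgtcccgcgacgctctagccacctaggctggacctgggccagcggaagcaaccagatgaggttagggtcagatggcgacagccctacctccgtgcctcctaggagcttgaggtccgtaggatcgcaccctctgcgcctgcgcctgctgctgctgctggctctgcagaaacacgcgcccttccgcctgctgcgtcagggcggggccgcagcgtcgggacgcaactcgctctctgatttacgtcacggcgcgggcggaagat
In Bnip3 the palindrome CACGTG was counted once on each strand, so that 2 matches overlap. The promoters of Slc2a3 and Ndrg1 were not matched.

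The question whether autosomal expression differed between the sexes in WT was tested with edgeR's quasi-likelihood test, female against male. Of 15575 genes 7 were called (0.0449%), all higher in females, and 467 had an unadjusted p under 0.05, 316 of them higher in females. Scand1, a small SCAN-domain protein, was at 6.16, 9.37 and 8.50 CPM in males and 19.2, 21.6 and 23.3 CPM in females, a log2 difference of 1.39 ± 0.16 (SE, edgeR adjusted p = 0.0357). The agouti gene a, a signalling antagonist of melanocortin receptors in pigmentation, was at 21.4, 18.1 and 15.4 CPM in males and 36.4, 49.2 and 37.4 CPM in females (1.18 ± 0.15, edgeR adjusted p = 0.0396). Lars2, the mitochondrial leucyl-tRNA synthetase, was at 1709, 1789 and 1683 CPM in males and 2595, 2574 and 2371 CPM in females (0.54 ± 0.07, edgeR adjusted p = 0.0357). Jund, a subunit of the AP-1 factor, was at 80.3, 79.9 and 81.8 CPM in males and 116, 114 and 126 CPM in females (0.56 ± 0.07, edgeR adjusted p = 0.0445). The non-coding genes Gm48488, Gm45444 and D830050J10Rik differed by 0.91, 1.33 and 1.15 on the log2 scale.

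The calls were few and depended on single libraries. Without WT male replicate 1, WT male replicate 3 or WT female replicate 5 edgeR called 0 genes, with 482, 562 and 635 at an unadjusted p under 0.05, and without each of the other 3 libraries it called 3 or 4. Among the 7 were 2 of 3 calls without WT male replicate 2, 4 of 4 without WT female replicate 4 and 1 of 3 without WT female replicate 6. DESeq2 called 32, all higher in females and including the 7. Of the 7 genes 6 share exon bases with another gene, beside 6788 of all 15575 tested. Of the 316 genes with an unadjusted p under 0.05 and a higher female level 199 do. The shared part is 52.6% of the exon bases in Jund, 42.4% in Gm45444 and 40.4% in Scand1. Gm48488 overlaps the end of Gas1, the Shh co-receptor, on the other strand. Gas1 was at 192, 237 and 205 CPM in males and 251, 274 and 278 CPM in females, with an edgeR adjusted p of 0.596. Without strand, reads from such partners cannot be told apart. The exons of the 316 genes with a small p and a higher female level had a median GC content of 54.5%, against 50.9% for the 151 lower in females and 49.9% for all tested, and the part of base composition was not tested. The models AY036118 and Gm42418 were also higher in every female library than in any male, at 4685 to 5263 CPM against 1620 to 3854 CPM and at 5301 to 5991 CPM against 1778 to 4248 CPM, with edgeR adjusted p = 0.653 and 0.595. They were chosen after their values were seen, and the source of the reads counted for them and for Lars2 was not tested.

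**Figure D5:**
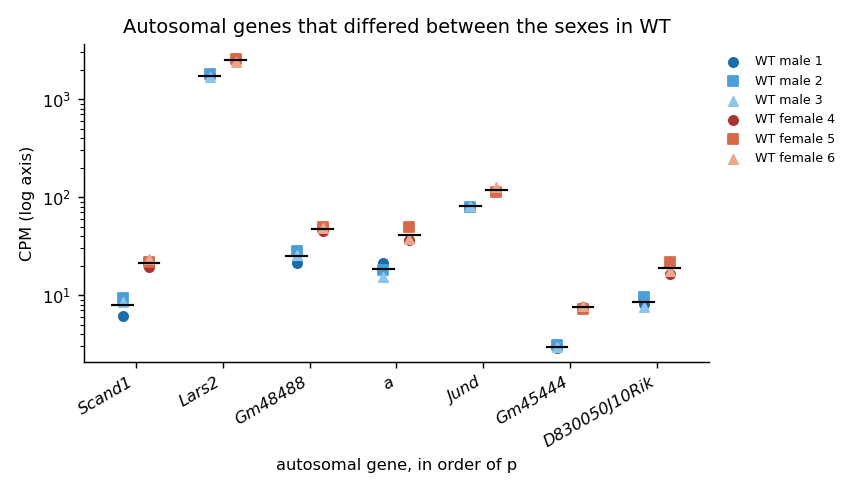
CPM (log axis) of the 7 autosomal genes called between the sexes, in each male (blue) and female (red) WT library, with bars at the mean of 3. All 7 have the higher mean in females, and Scand1 has means of 8.01 and 21.3 CPM.

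Genes of the face lists were examined in the same comparison. None of the 34 facial mesenchyme genes was called by edgeR, DESeq2, limma-voom or limma on log2 RPKM, and 1 had an unadjusted p under 0.05. Over all genes tested those shares were 0.0449% and 3.00%, so both counts are near the background and are no result about these genes. Of the 5 label markers the largest log2 difference was that of Prrx1, at -0.20 ± 0.16 (SE), and for Alx1 it was 0.11 ± 0.24. Of the 14 Shh pathway genes 0 were called by these 4 tools and 1 had an unadjusted p under 0.05. Of 21 immediate early genes Jund alone was called by edgeR.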

How the data were processed

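RNA sequencing of 10 FNP samples was deposited as 2 tables, of which the 6 WT columns were used here. According to the methods and the submitters' processing notes, the authors trimmed single-end reads with Trim Galore 0.4.4, aligned them with HISAT2 2.0.5 to GRCm38.p6 and quantified genes in SeqMonk, and bcl2fastq is also named. The kit given for these libraries in the labels does not mark strand. The authors deposited raw counts per gene, which are whole numbers, and log2 RPKM values, scaled by library size and transcript length, with 0 written as 0.9 of a read. The 4 columns of genotype means were not used. Of 35591 rows, 27 symbols turned into dates were restored and 49 repeated identifiers dropped, leaving 35542 genes, of which 33659 are autosomal and 13 mitochondrial with 0 counts.

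Levels are means of deposited log2 RPKM, and their values are printed as RPKM. Spread is the SD of log2 CPM (TMM, prior count 2) at a mean of 10 CPM or more. The 35 gene lists held 755 symbols, 748 of them on autosomes. List scores used members at 1 CPM or more. Female against male was tested on counts with edgeR 4.0.16 (quasi-likelihood, filterByExpr, TMM, Benjamini-Hochberg, 0.05) in R 4.3.3, with DESeq2 1.42.0 and limma 3.58.1 as alternatives, and the script was tested on simulated data. Exon structures came from GENCODE M21 (GRCm38). Genes were named by level (20 highest), by spread (20 largest, 15 smallest), by place in each list (4 highest, 2 of the largest and 1 of the smallest SD, members under 1 RPKM, and members of a described pathway role) and by the call between the sexes. The members and lists were chosen with earlier results of these data known.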

Additional observations from a re-analysis of the deposited data

Results flagged for a closer look

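Of 85 values examined (list scores, label markers and the genes of highest level, largest spread or called between the sexes), 9 had a library whose gap to the nearest other library exceeded Dixon's 95% limit for 6 samples, as a share of the range, and chance alone flags about 5% of groups. That share does not apply to the genes picked for their large spread, to which 6 of the 9 belong, nor to their lists. The library was WT male replicate 1 in all 9. It stood at 0.84 for the score of glycolysis and hypoxia genes, 0.77 for that of the integrated stress response and 0.41 for that of immediate early genes. On the log2 CPM scale, relative to the mean of the 6 libraries, it stood at 2.81 for Ndrg1, 2.75 for Eno2, 2.52 for Bhlhe40, 1.83 for Stc2, a secreted stress glycoprotein, 1.70 for Ddit4 and 1.68 for Egln3. These values are not independent, since all 9 come from the same library and Ndrg1, Ddit4 and Egln3 are members of the glycolysis and hypoxia list. Eno2, Bhlhe40 and Stc2 are on neither that list nor the integrated stress response list.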

How the results depend on the processing

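The number of autosomal genes at 1 RPKM or more was 11866 to 12650 under every alternative. High-spread genes numbered 95 to 100 under other scalings, prior counts or the deposited log2 RPKM, 891 at a minimum mean of 1 CPM and 34 at 30 CPM, where fewer or more genes were measured, and 77 to 112 without 1 library. Chosen after seeing the data were further alternatives, which gave 99 within the sexes, 83 at a median of at least 10 CPM (81 of them among the 95), 43 without WT male replicate 1 and WT female replicate 4, and 26 with edgeR's biological coefficient of variation over 0.35. For female against male, DESeq2 called 32 genes, a fit without a filter beyond 1 count 36, a fit over all chromosomes 15, limma-voom 5 and limma on log2 RPKM 9. Leaving out 1 library gave 0 to 4 calls, not all of them among the 7. All calls under these alternatives were higher in females, and none of the 7 changed direction. The alternatives reuse the same libraries, so the direction could hardly change. Without filter or with all chromosomes the cause was not tested. No paired analysis was possible because the male replicates are numbered 1 to 3 and the female replicates 4 to 6, so they share no number. Depth limits the low-level lists. Some genes with a mean level under 1 RPKM, such as Rax, Aldh1a1, Ndrg1 and Afp, were nevertheless compared between libraries. The same holds for the summed yolk sac and liver genes.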
